A study of Homo sapiens with 12 samples.

Results

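The genes described here are MYC, the transcription factor that drives cell growth, and genes named for making ribosomes. They were chosen by symbol: protein-coding genes whose names start with NOP, NOL, NOC, RRP, GNL, POLR1, IMP3, IMP4, BMS1, RRS1 or UTP followed by a digit, together with MYC, NCL, NPM1, NPM3, FBL, BOP1, PES1, WDR12, WDR43, DKC1, NAT10, MYBBP1A, PPAN, NIP7, TSR1 and LYAR. Of 14118 genes with a named probe set, 45 met the rule. RefSeq lists 76 protein-coding genes that meet it, and the other 31, among them NPM1, DKC1 and PES1, are not analysed here. The label holds for 41 of the 45, including MYC. The remaining 4 share only the letters of the name: GNLY encodes granulysin of cytotoxic lymphocytes, NOCT encodes the phosphatase nocturnin, and NOL4 and NOL4L have no settled role in the ribosome.

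RNA of 3 human cell lines from colorectal cancer (HCT116, SW48, RKO) was hybridised to 12 arrays of the Affymetrix Human Gene 2.0 ST type. All 3 lines are labelled p53 wild type, so no group lacks p53. Each line was either left untreated or given 10 µM Nutlin-3a for 8 h, which makes 6 groups with 2 arrays each. Nutlin-3a is a small molecule that keeps MDM2 from binding p53 and so stabilises p53. The labels do not say whether the duplicates were separate cultures, so the p-values measure only the spread between these samples, which may be technical. The RNA extraction text speaks of thyroid tissue and the culture text names HCT116 only. Thyroid markers were therefore checked, and the group means of all 6 measured ones (TG, TSHR, PAX8, FOXE1, NKX2-1 and DUOX2) lay between 4.17 and 6.24 on the log2 scale, near the array medians of 4.97 to 5.05. EPCAM, an epithelial surface protein, had group means of 11.02 to 11.12 in HCT116 and SW48 but 6.03 in untreated and 5.85 in treated RKO. KRT19 was likewise lower in RKO, at 6.22 against 10.13 in HCT116 and 8.74 in SW48 before treatment. Other intestinal markers were not high in every line. Untreated CDX2 was at 9.60 in SW48 but at 7.38 in HCT116 and 7.52 in RKO. CEACAM5 was at 9.25 in untreated SW48 but at 4.37 in HCT116 and 4.67 in RKO. Group means of CDX1 and VIL1 lay between 5.71 and 6.04 and those of KRT20 between 4.17 and 5.27, in the range of the thyroid markers. Of the 11 measured intestinal markers, CLDN4 rose in HCT116 by 0.49 and LGR5 fell by 0.63 in SW48, and none passed in RKO. Of 8 measured immune, fibroblast and endothelial markers, CD68 lay between 8.56 and 10.56 and the others between 3.06 and 5.86, and THY1 fell by 0.32 in HCT116. The part of such marker differences in the results below was not tested.

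Ribosomes are assembled in the nucleolus. RNA polymerase I copies the ribosomal RNA genes into a long precursor, small nucleolar ribonucleoproteins (snoRNPs) modify it, and large assembly complexes cut and fold it into the small and large subunits. MYC is known to raise transcription of many genes of this pathway, often through the DNA hexamer called the E-box, and colorectal cancer cells commonly carry high MYC. p53 is known to restrain growth, and disturbed ribosome assembly in turn raises p53 through ribosomal proteins that bind MDM2.

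The E-box CACGTG, which reads the same on both strands, was searched in the RefSeq promoter windows of GRCh38.p14, from 250 bases before to 50 bases after the first listed transcript start. Windows were given for 37 of the 45 genes, and 13 of them (35.1%) held at least 1 E-box. Among all tested protein-coding genes with a window the share was 9.1% (870 of 9559), and among those above the median mean level of all genes (the brighter genes) it was 10.7% (610 of 5689). With every listed start counted, the shares were 37.8% and 11.3%. The 13 genes were FBL, GNL2, MYBBP1A, NAT10, NOC3L, NOL6, NOL8, NOP10, NOP14, NOP2, UTP18, UTP25 and WDR43. A match is a description of letters and not a measured binding site.

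Windows of 30 bases around the box are shown for some of the genes whose values are described below, with the E-box in capitals. Others described below, such as FBL, NOL6 and NOP10, also hold a box and are not shown. A pair of boxes of UTP18 lies on the plus strand at chr17:51260445-51260474 and chr17:51260538-51260567, where the box starts at base -89 and base 5 from the transcript start. The NOL8 window is chr9:92325342-92325371 on the minus strand (base -9), and the NAT10 window is chr11:34105602-34105631 on the plus strand (base -15). For GNL2 it is chr1:37595917-37595946 on the minus strand (base 4), and for WDR43 chr2:28894658-28894687 on the plus strand (base 4). LYAR has its box only before its second listed start, at chr4:4290068-4290097 on the minus strand (base -64).
UTP18 upstream box: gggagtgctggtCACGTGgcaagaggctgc
UTP18 start box: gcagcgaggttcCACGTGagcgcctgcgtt
NOL8: gctccgttgggaCACGTGaccagaagttag
NAT10: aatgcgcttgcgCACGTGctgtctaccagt
GNL2: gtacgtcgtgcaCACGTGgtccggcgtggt
WDR43: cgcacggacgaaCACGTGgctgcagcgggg
LYAR, second start: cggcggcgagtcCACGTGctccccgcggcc

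The stretch before the first start of LYAR that overlaps no other RefSeq gene is 96 bases long, at chr4:4290155-4290250 on the minus strand. NOP16, NOLC1, LYAR and RRP1B were considered for their called falls in RKO or in the mean over lines. Only LYAR gave a stretch to show. The LYAR stretch holds 0 E-boxes.
LYAR, first start: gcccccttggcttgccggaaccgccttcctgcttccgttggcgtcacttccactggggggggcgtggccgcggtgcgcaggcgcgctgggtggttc

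MYC fell after Nutlin-3a in RKO and not in the other lines by the same test. Untreated RKO arrays read 10.53 and 10.42, and treated ones 10.07 and 10.15 (log2 expression values). The treated arrays were both below the untreated ones, a difference of -0.36 ± 0.065 (log2, SE, n = 2 arrays per group), or 1.28-fold lower, with an adjusted p of 0.0249 (limma, Benjamini-Hochberg over 14118 genes). In SW48 the 2 untreated arrays were at 10.10 and 10.01 and the treated ones at 10.24 and 10.19, so the groups did not overlap in the opposite direction, but the difference of 0.16 ± 0.065 did not pass (limma adjusted p = 0.272). HCT116 arrays lay between 10.45 and 10.51 in both conditions, with a difference of 0.033 (limma adjusted p = 0.843). In a population of cells, a lower array value cannot tell fewer cells with the RNA apart from less RNA per cell. The RKO call was lost when any 1 of the 4 RKO arrays was left out, with adjusted p up to 0.149.

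**Figure D1:**
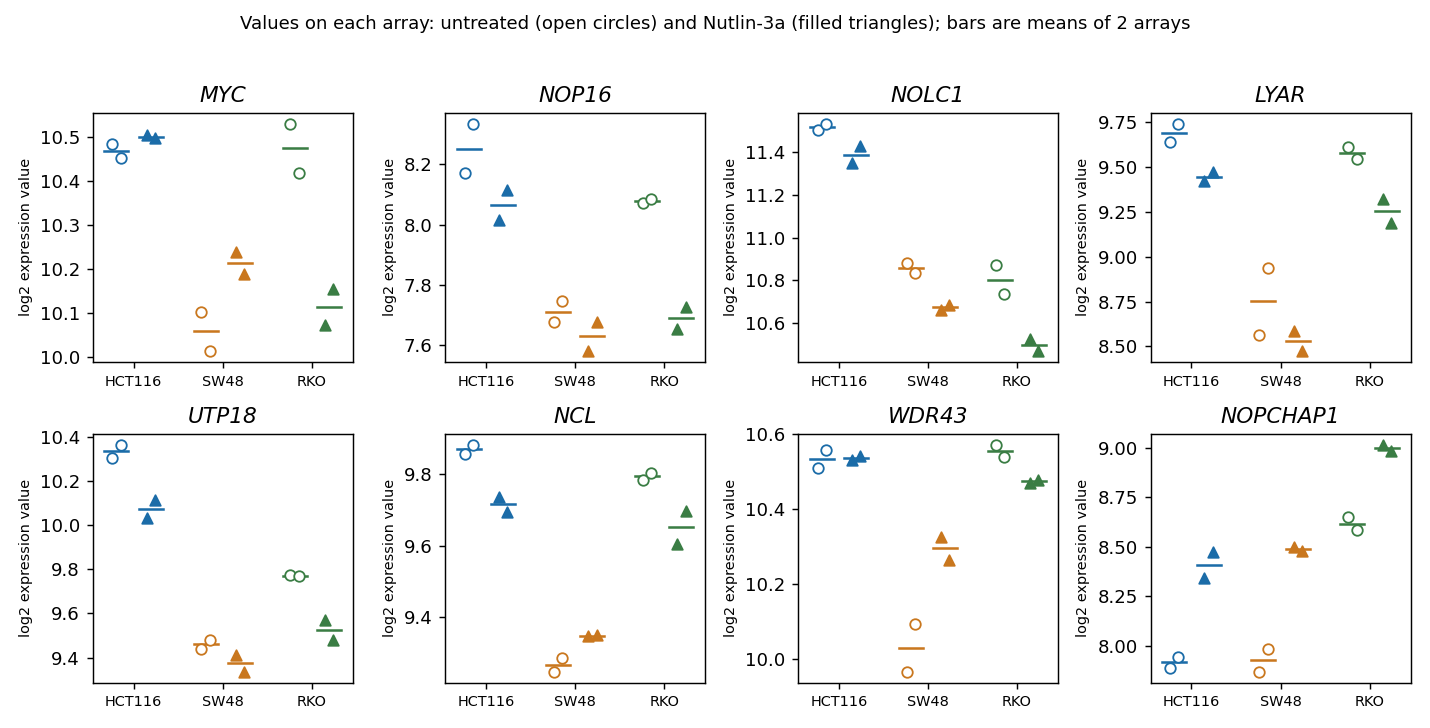
Log2 expression value (y axis) of 8 genes on each of the 12 arrays, by cell line (x axis); open circles are untreated arrays, filled triangles Nutlin-3a arrays, and bars the means of 2 arrays. In RKO both treated MYC arrays (10.07 and 10.15) lie below both untreated ones (10.53 and 10.42), and NOPCHAP1 is higher after Nutlin-3a in all 3 lines.

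In RKO the ribosome biogenesis genes lay mostly below their untreated level, by small amounts. NOP16, MYC and NOLC1 passed as lower and NOPCHAP1 as higher. Of the 45 genes, 3 were therefore lower, against 0.793% of all genes, and 1 was higher, against 1.23%. The estimate was below 0 for 41 genes (52.1% of all genes and 60.9% of the brighter genes). The median difference was -0.14, against -0.0068 over all genes and -0.034 over the brighter genes, to which 41 of the 45 belong. Both treated arrays were below both untreated arrays for 32 genes (25.7% of all genes) and above them for 2 (20.6%). An unadjusted p under 0.05 was reached by 22 genes in the lower direction (9.53% of all genes) and by 1 in the higher direction (7.41%). A fall of at least 0.2 was estimated for 14 genes (8.75% of all genes).

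NOP16, a nucleolar protein of large subunit assembly, had the lowest estimate in RKO. Its untreated arrays were at 8.07 and 8.08 and its treated arrays at 7.65 and 7.73. The groups did not overlap, and the difference was -0.39 ± 0.074, or 1.31-fold lower (limma adjusted p = 0.0303). NOLC1, a chaperone of snoRNPs that shuttles between nucleolus and Cajal bodies, read 10.87 and 10.74 untreated and 10.52 and 10.47 treated. These groups were apart as well, by -0.31 ± 0.065, or 1.24-fold (limma adjusted p = 0.0466). The NOLC1 call in RKO was lost when any 1 of the 12 arrays was left out, with adjusted p up to 0.235, under median centring (0.0547) and under quantile normalization (0.0529). NOP16 lost its call without any 1 of the 4 RKO arrays, with adjusted p up to 0.141.

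By role, all 12 genes of the small subunit processome and pre-40S particle had estimates below 0 in RKO, between -0.25 and -0.024, and 0 of them passed (limma; all genes 0.793%). NOL11, which links polymerase I transcription to processing, was at 11.53 and 11.47 untreated and 11.25 on both treated arrays, and UTP18, a processome subunit, at 9.77 on both untreated arrays and at 9.57 and 9.48 treated. Neither passed, with adjusted p of 0.068 and 0.078. Among the 16 large subunit genes, 15 were below 0, with a median of -0.16, and NOP16 alone passed. FBL, the methyltransferase of box C/D snoRNPs, moved by -0.020 in RKO, and NAT10, which acetylates ribosomal RNA, by -0.16 (limma adjusted p = 0.203). The polymerase I subunit POLR1F was at -0.20 and did not pass (limma adjusted p = 0.242).

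The number of genes passing in RKO changed with the prior of the test and with the genes tested. When limma was given a prior that follows intensity and resists outliers, 13 genes passed as lower, where 3.18% of all genes did. Among genes above the median level only, 13 of the 41 that remained passed, against 6.57% of all genes so kept.

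**Figure D2:**
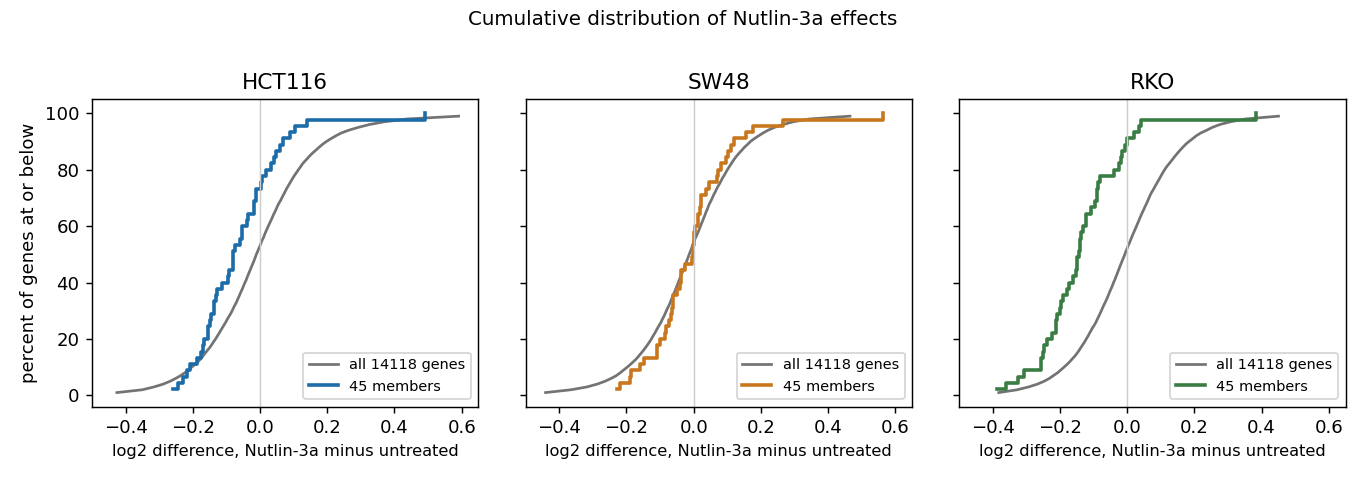
Percent of genes (y axis) at or below each log2 difference between Nutlin-3a and untreated cells (x axis) in each cell line; the grey line covers all 14118 genes and the coloured step line the 45 genes described. In RKO the step line lies to the left of the grey line, with medians of -0.14 and -0.0068, while in SW48 the medians are -0.0011 and -0.013.

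In HCT116 UTP18 fell and NOPCHAP1 rose, and the other 43 genes did not pass. The share of all genes called was 2.03% lower and 3.08% higher, so 1 gene in each direction among 45 is near the background. At an unadjusted p under 0.05 there were 11 genes lower, against 9.97% of all genes, and 1 higher, against 9.6%. UTP18 read 10.31 and 10.37 untreated and 10.03 and 10.12 treated, without overlap, a difference of -0.26 ± 0.063 or 1.20-fold (limma adjusted p = 0.0443). This call was lost when any 1 of the 12 arrays was left out (adjusted p up to 0.202) and after median centring (0.0926). Estimates were below 0 for 33 genes (53.2% of all genes and 48.4% of the brighter genes), with a median of -0.080 against -0.011 over all genes. Treated arrays lay below untreated ones without overlap for 24 genes, against 27% of all genes, and above them for 6, against 23.9%. NCL, which encodes nucleolin, was at 9.86 and 9.88 untreated and at 9.74 and 9.69 treated, a difference of -0.15 that did not pass (limma adjusted p = 0.171).

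In SW48 NOPCHAP1 was the only gene that passed, as higher, and 0 genes passed as lower in limma. The background was 1.74% lower and 1.38% higher over all genes, and at an unadjusted p under 0.05 there were 3 genes lower, against 10.3% of all genes, and 4 higher, against 5.89%. The estimates were spread around 0: 24 genes lay below it (54.2% of all genes), with a median of -0.0011 that turned to 0.017 under quantile normalization. Among the brighter genes 63.9% lay below 0, with a median of -0.042. Treated arrays were below untreated ones without overlap for 15 genes, against 27.4% of all genes, and above them for 10, against 19.3%. WDR43, a processome subunit needed for polymerase I transcription, was at 9.97 and 10.09 untreated and at 10.33 and 10.27 treated. Its difference of 0.27 ± 0.062 did not pass (limma adjusted p = 0.0523), and it did pass under quantile normalization (0.0281). NOP9 had the lowest estimate in SW48, at -0.23 (limma adjusted p = 0.12).

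NOPCHAP1 rose in all 3 lines, and in each line it was the single gene of the 45 that passed as higher. It encodes a chaperone that brings NOP58, a core box C/D snoRNP protein, to its assembly machinery. In HCT116 it was at 7.89 and 7.94 untreated and at 8.34 and 8.47 treated, a rise of 0.49 ± 0.068 or 1.41-fold (limma adjusted p = 0.00294). In SW48 it went from 7.87 and 7.98 to 8.50 and 8.48, a rise of 0.56 ± 0.068 or 1.48-fold (limma adjusted p = 0.00177). RKO began higher, at 8.65 and 8.58, and reached 9.01 and 8.99, a rise of 0.38 ± 0.068 or 1.31-fold (limma adjusted p = 0.0242). Treated and untreated arrays did not overlap in any line. The RKO call was lost without any 1 of the 4 RKO arrays (adjusted p up to 0.113). NOP58 itself was at -0.093, -0.039 and -0.20 in HCT116, SW48 and RKO, and passed in none.

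**Figure D3:**
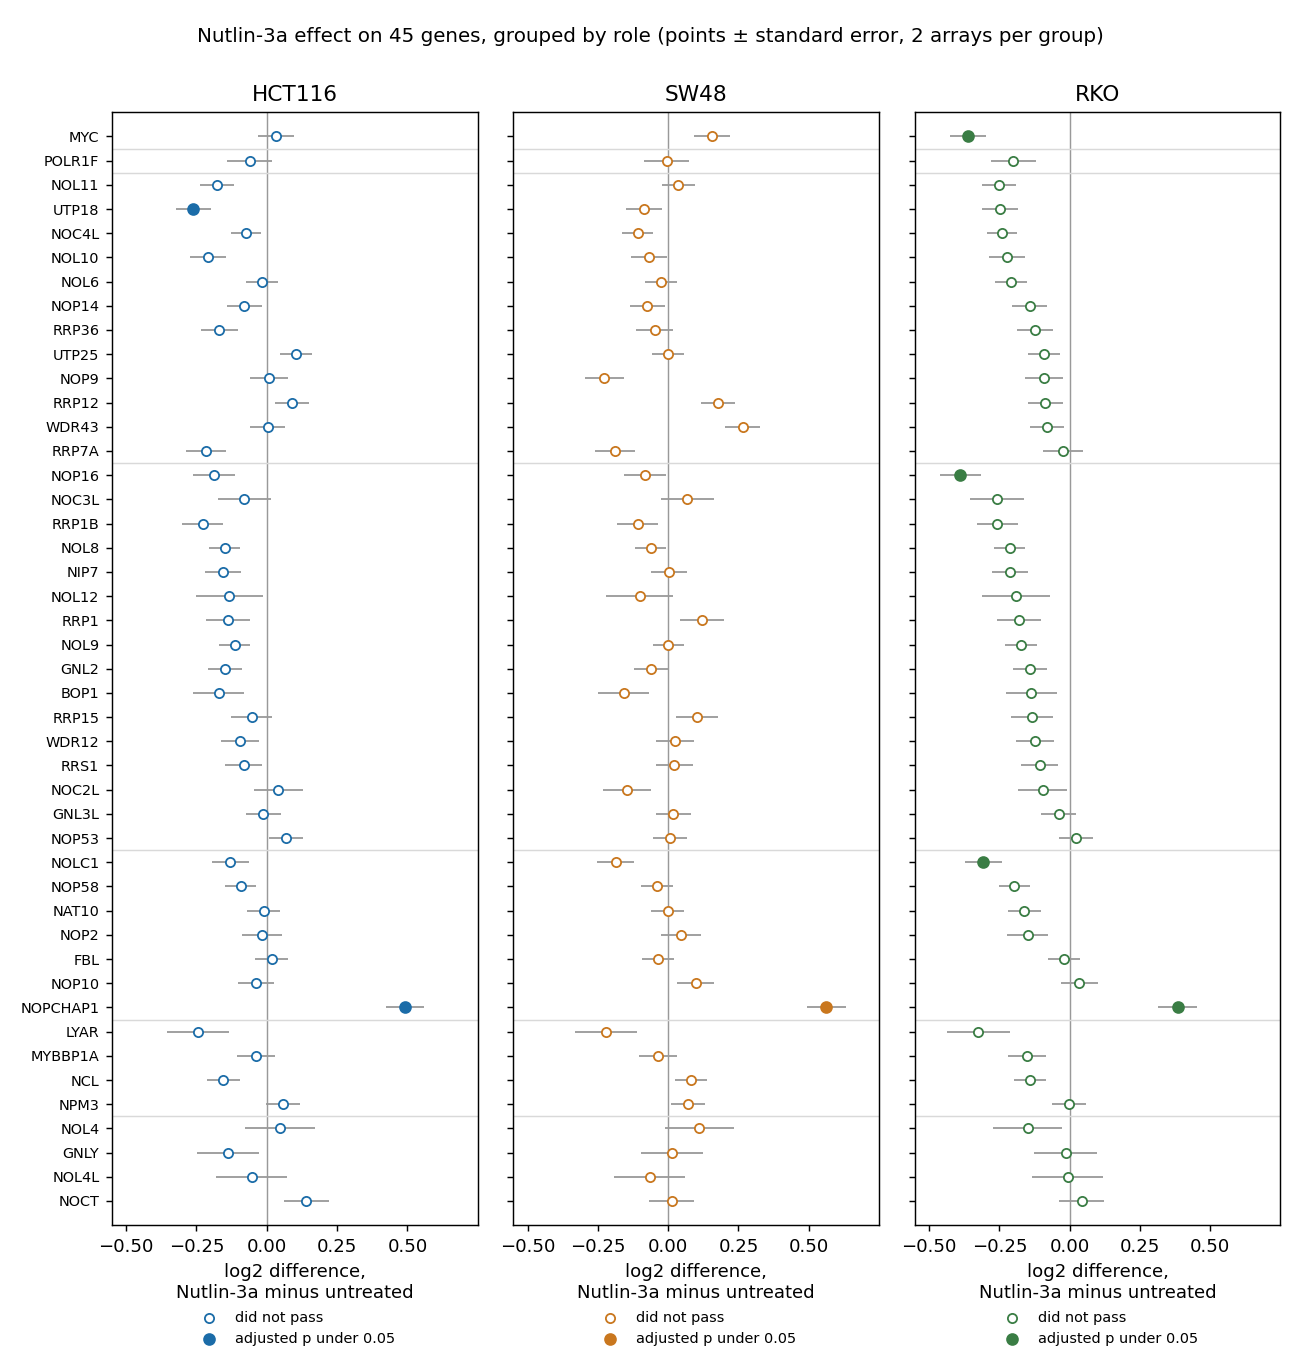
Log2 difference between Nutlin-3a and untreated cells (x axis, points ± standard error from limma, 2 arrays per group) for each of the 45 genes (y axis, grouped by role and ordered within a role by the RKO estimate). Filled points have an adjusted p under 0.05: UTP18 and NOPCHAP1 in HCT116, NOPCHAP1 in SW48, and MYC, NOP16, NOLC1 and NOPCHAP1 in RKO.

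Averaged over the 3 lines, 9 genes fell and NOPCHAP1 rose. The 9 of 45 lower genes stand beside 6.44% of all genes, and the 1 higher gene beside 4.33%. Among the brighter genes 11.8% were lower. Of the 9, 4 belong to the small subunit processome, namely UTP18, NOL10, NOC4L and NOL11, and 3 to large subunit assembly, namely NOP16, RRP1B and NOL8. The others were NOLC1 and LYAR, a nucleolar protein of growing cells. None of the 4 genes that share only the letters of the name passed.

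LYAR had the largest mean fall, -0.26 ± 0.064 or 1.20-fold (limma adjusted p = 0.0286). It went from 9.64 and 9.74 to 9.42 and 9.47 in HCT116, and from 9.61 and 9.54 to 9.32 and 9.19 in RKO. In SW48 the untreated arrays, at 8.56 and 8.94, overlapped the treated ones at 8.59 and 8.48. The next were NOP16 at -0.22 ± 0.043 (limma adjusted p = 0.0105) and NOLC1 at -0.21 ± 0.038 (0.00713). RRP1B, a large subunit factor that binds a protein phosphatase, and UTP18 were both at -0.20, with adjusted p of 0.0154 and 0.00758. NOP16, NOLC1, RRP1B, UTP18 and NOPCHAP1 passed whichever array was left out.

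The other mean falls were smaller and less firm. NOL10 was at -0.17 (limma adjusted p = 0.0191), and it is the single gene here with more than 1 probe set. The mean of its probe sets gave -0.10 and did not pass (0.118). NOL8 and NOC4L, the partner of NOP14 in the small subunit, were both at -0.14, and NOL11 at -0.13. Leaving out 1 array ended the call of NOL11 in 11 of 12 cases, of LYAR in 7, of NOL10 in 5, of NOL8 in 3 and of NOC4L in 2. BOP1, which acts with WDR12 in large subunit processing, was at -0.16 and did not pass (limma adjusted p = 0.0925). NCL (-0.071), NAT10 (-0.058), MYC (-0.058) and FBL (-0.013) did not pass either. After NOPCHAP1, the highest mean estimates were those of NOCT (0.065), WDR43 (0.063) and RRP12 (0.060), an export factor of the pre-40S particle, and none passed.

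Genes with and without a promoter E-box were set side by side, with no test. The median in RKO was -0.15 for the 13 genes with a box and -0.13 for the 24 without. It was -0.037 and -0.085 in HCT116, -0.025 and 0.0039 in SW48, and -0.075 and -0.069 for the mean over lines. The 30-base windows of UTP18 and NOL8 belong to genes that passed in the mean, while WDR43, GNL2 and NAT10 carry the same letters and did not pass.

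The test of equal Nutlin-3a effects in the 3 lines, an F test in limma, was passed by 0 of 45 genes, against 0.503% of all genes. At an unadjusted p under 0.05 there were 7 genes, against 14.3% of all genes. MYC had the smallest p, 0.00062 before and 0.0754 after adjustment. Its effect in RKO was lower than in SW48 by 0.52 on the log2 scale (SE 0.092, limma adjusted p = 0.0573) and lower than in HCT116 by 0.39 (0.148), and that in SW48 differed from HCT116 by 0.12 (0.607). So the fall of MYC passed within RKO, while its difference from the other lines did not pass. WDR43 followed with an unadjusted p of 0.00723 (adjusted 0.191), then NOL11 (0.018), NCL (0.0267), RRP12 (0.0367) and NOP16 (0.043).

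Before any treatment most of these genes differed between the lines, as did most of the brighter genes. Untreated SW48 had the lowest level of most of these genes, MYC included, and RKO and HCT116 were closer to each other. The F test of equal untreated levels was passed by 40 of 45 genes (88.9%), against 58.1% of all genes and 83.6% of the brighter genes. That count is near the share among the brighter genes. SW48 was lower than HCT116 for 34 genes (22.1% of all genes) and higher for 1, NOP53 (22.7%), with a median of -0.41. The shares among the brighter genes were 32.5% lower and 33.3% higher. RKO was higher than SW48 for 33 genes (23.6% of all genes) and lower for 0 (21.1%), with a median of 0.42. Here the brighter genes had 37.4% higher and 29% lower. These 2 comparisons share the SW48 arrays. RKO against HCT116 gave 10 lower (19% of all genes) and 16 higher (22.4%), with a median of 0.013. Among the brighter genes 25% were lower and 35% higher in RKO, so both counts are near that background.

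Untreated SW48 had the lowest mean of the lines for 35 of the 45 genes, where 36.1% of all genes have their lowest mean there. For 28 genes it was lower than both other lines by the limma test, against 12.7% of all genes and 22.1% of the brighter genes. MYC was at 10.10 and 10.01 in SW48, against 10.48 and 10.45 in HCT116 and 10.53 and 10.42 in RKO. SW48 was lower than HCT116 by -0.41 ± 0.065 (limma adjusted p = 4.27e-04), and RKO differed from HCT116 by 0.0057 (0.956). In the order of MYC levels, RKO and HCT116 thus did not differ beyond their spread. The MCM genes of the replicative helicase, a measure of cycling cells, were also lower in untreated SW48 than in HCT116, all 7 of 7 with a median of -0.63. Their part in the lower levels of SW48 was not tested.

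**Figure D4:**
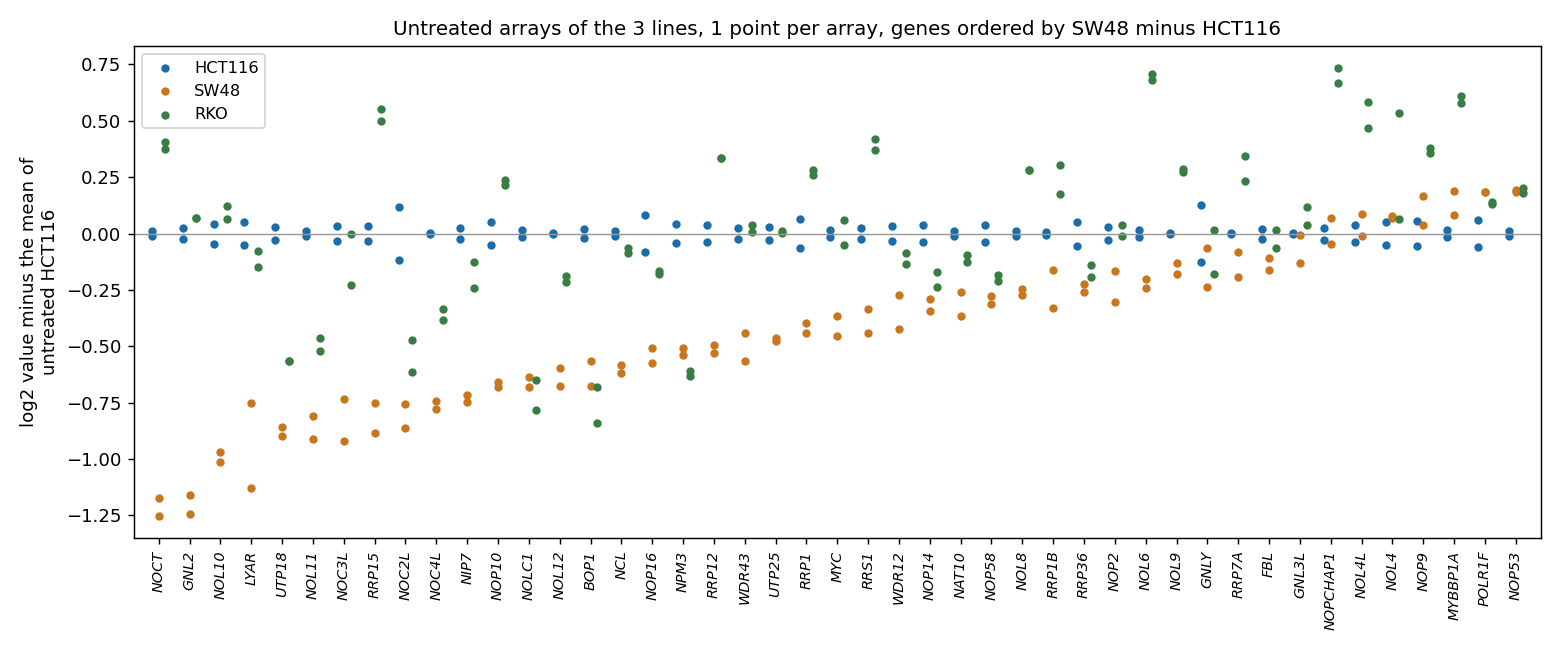
Log2 value of each untreated array minus the mean of untreated HCT116 (y axis) for the 45 genes (x axis, ordered by SW48 minus HCT116), 1 point per array and 2 arrays per line. SW48 points lie below 0 for most genes, with the lowest means for GNL2 and NOCT at -1.20 and -1.21, while RKO points lie on both sides.

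GNL2, a GTPase of large subunit precursors, differed most clearly between untreated lines. It was at 10.65 and 10.60 in HCT116 and at 10.70 on both RKO arrays, but at 9.38 and 9.47 in SW48, 2.30-fold below HCT116 (limma adjusted p = 1.14e-07). NOL10, a processome subunit, was at 9.37 and 9.42 in SW48 against 10.34 and 10.43 in HCT116, 1.99-fold lower. RRP15, a large subunit factor, ordered all 3 lines: 8.47 and 8.60 in SW48, 9.39 and 9.32 in HCT116, and 9.91 and 9.85 in RKO, a span of 1.34 log2 units from SW48 to RKO. NOCT, not a ribosome gene, spanned 1.60 log2 units in the same order.

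NOL6, of the processome, was in the same order, with RKO at 9.68 and 9.71, HCT116 at 9.02 and 8.98 and SW48 at 8.80 and 8.76. NOP10, of the H/ACA snoRNPs, was at 10.36 and 10.34 in RKO and at 9.47 and 9.45 in SW48, and RRP12 at 10.16 on both RKO arrays and at 9.33 and 9.29 in SW48. Other genes ordered the lines differently. UTP18, NOL11 and NOC4L were highest in HCT116, with RKO between it and SW48: UTP18 read 10.31 and 10.37 in HCT116, 9.77 on both RKO arrays and 9.44 and 9.48 in SW48. NOLC1, BOP1 and NPM3, a relative of nucleophosmin, were higher in HCT116 than in the other lines. NOLC1 was at 11.50 and 11.53 there, and its difference between RKO and SW48 of -0.056 did not pass (limma adjusted p = 0.537). NOPCHAP1 was highest in RKO, 0.70 above HCT116.

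The rest of the pathway was read from lists of genes outside the 45. In RKO, 3 of 27 other small subunit genes fell and 0 rose: WDR3 by 0.38 (limma adjusted p = 0.00842) and PWP2 by 0.32, both subunits of the processome that also holds UTP18, and PDCD11 by 0.26. Their list had a median of -0.18, beside -0.0068 over all genes. The share of all genes called in RKO was 0.793% lower and 1.23% higher. Of 35 other large subunit genes, MRTO4 fell by 0.41 and MAK16 by 0.33 in RKO, and none rose. Of 12 other snoRNP and modification genes 0 passed there in limma, with 2 lower at an unadjusted p under 0.05. RPP40, a protein of RNases P and MRP, fell by 0.41 in RKO, and it was the only one of 17 exosome and ribonuclease genes to pass there. PPAT, a purine synthesis enzyme and MYC target, fell by 0.30 in RKO and 0.28 in HCT116, and the other 16 MYC targets outside the ribosome did not pass in either line.

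HCT116 showed calls in other places. RPP25, also of RNases P and MRP, fell by 0.60, and RIOK3, a kinase of pre-40S particles, rose by 0.63. MXD1 and MXD4, which pair with MAX and oppose MYC, rose by 0.92 and 0.59, the 2 of 9 measured MYC network genes that passed there. Over all genes 2.03% were lower and 3.08% higher in HCT116. In SW48 and RKO MXD1 was at 0.25 and 0.34 and MXD4 at 0.040 and 0.27, and none of these passed. Both passed as higher in the mean over lines, by 0.50 and 0.30 (limma adjusted p = 2.56e-04 and 0.00286). MLXIP of the same list passed as lower in the mean, at -0.14 (limma adjusted p = 0.0388). Neither MXD1 nor MXD4 passed the F test of equal effects (adjusted p = 0.0864 and 0.132). In SW48, 0 genes of the small subunit, large subunit, snoRNP, exosome and MYC target lists passed in limma. At an unadjusted p under 0.05 these lists held 1, 0, 1, 2 and 1 lower genes and 2, 3, 0, 0 and 0 higher ones. Genes for ribosomal proteins themselves had 0 of 42 calls in every line, with 1, 0 and 5 lower at an unadjusted p under 0.05 in HCT116, SW48 and RKO and 3, 5 and 1 higher. That list was taken by symbol and includes RPS19BP1, a binding partner, and the readthrough RPL36A-HNRNPH2. The 5S RNP and p53 feedback list, with RPL11 and MDM4, had 0 of 7 calls in each line, and at an unadjusted p under 0.05 it had 2 higher in HCT116 and 2 lower in RKO. MDM2, CDKN1A, RPL5 and RPL23 of that list were not among the genes tested, so the list cannot show whether they responded.

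Averaged over the lines, 5 of the 27 genes on the other small subunit list fell, among them LTV1 by 0.22 and WDR3 by 0.21, and RIOK3 rose by 0.40. NAF1, on that list but an assembly factor of H/ACA snoRNPs, fell by 0.25 and is counted among the 5. The large subunit list had 2 falls, URB2 by 0.35 and MRTO4 by 0.26. The snoRNP list had 3, namely NUFIP1 by 0.19, GAR1 by 0.18 and SHQ1 by 0.14, and these proteins assemble or form snoRNPs. Of the 17 exosome and ribonuclease genes 5 fell, RPP40 by 0.24 and RPP25 by 0.23 the most. HK2, a glycolytic enzyme, and PPAT fell by 0.25 and 0.22 as the 2 of 17 MYC targets outside the ribosome. Over all genes 6.44% were lower in the mean and 4.33% higher, and 11.8% of the brighter genes were lower. The counts of the large subunit and MYC target lists are near these shares.

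The MCM genes had medians further from 0 than the ribosome lists. All 7 fell in SW48, with a median of -0.70, 5 fell in HCT116 (-0.30) and 2 in RKO (-0.21). The shares of all genes called lower were 1.74%, 2.03% and 0.793% in these lines. At an unadjusted p under 0.05 in limma, 7, 5 and 7 MCM genes were lower in SW48, HCT116 and RKO. The order of the lines in the MCM medians was thus the reverse of that in the 45 genes, whose medians were -0.0011, -0.080 and -0.14 in SW48, HCT116 and RKO. Whether the lists differ in this order was not tested.

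In untreated cells the other lists also held many genes that were lower in SW48. This line was lower than HCT116 for 23 of 27 other small subunit genes, 21 of 35 large subunit genes, 10 of 12 snoRNP genes and 10 of 17 exosome and ribonuclease genes. It was lower for 11 of 17 MYC targets outside the ribosome and for 16 of 42 ribosomal protein genes. Over all genes 22.1% were lower, and among the brighter genes 32.5%. The higher calls in these lists numbered 0, 3, 0, 2, 2 and 1.

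**Figure D5:**
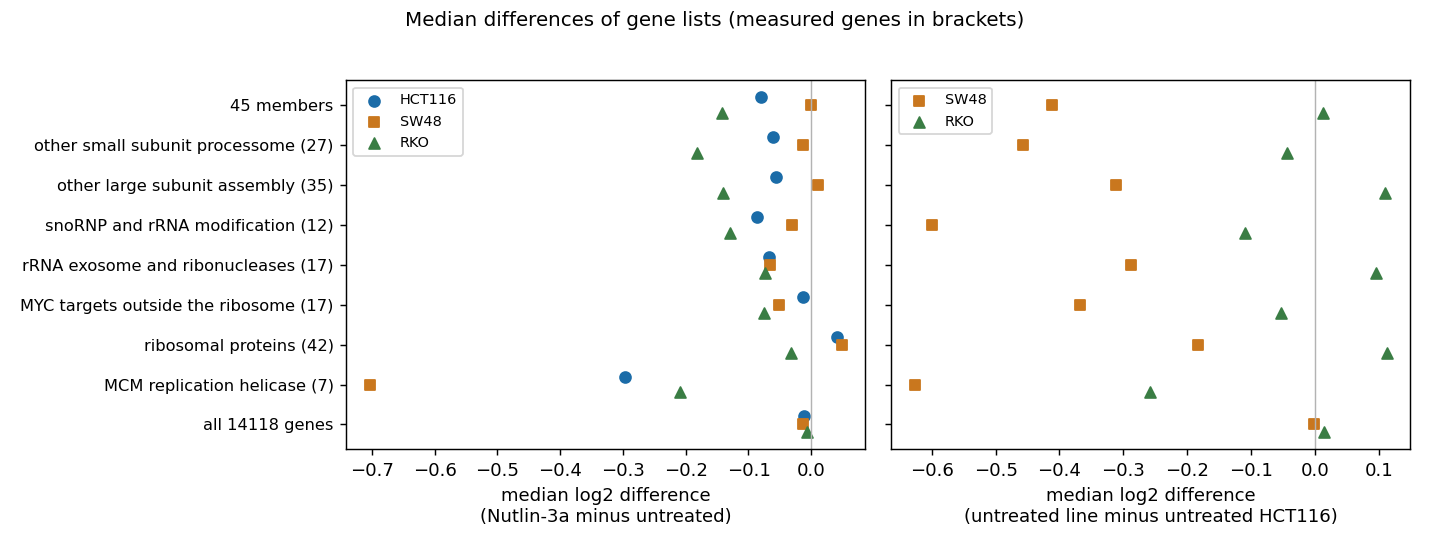
Median log2 difference (x axis) of each gene list (y axis, number of measured genes in brackets), for Nutlin-3a minus untreated in each line (left) and for untreated SW48 or RKO minus untreated HCT116 (right). On the left the RKO medians of the small subunit, large subunit and snoRNP lists and of the 45 genes lie between -0.18 and -0.13, and on the right the SW48 medians of all lists lie below 0.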

How the data were processed

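The deposited value table of 12 arrays holds 1 log2 expression value per probe set on each array. GCOS, the scanner vendor's software, is named in the submitters' processing notes. How the authors corrected background and normalized is not given in the sources used. The log base is unstated too, and the values, 2.22 to 13.45, were read as log2. The table held no detection calls. Of 37270 probe sets, 14530 had 1 gene symbol in the platform annotation, 0 had several and 22740 had none. Several probe sets of 1 gene were reduced to the brightest by mean, giving 14118 genes. No filter on dim values was applied. Of the 45 genes, 41 lie above the median gene by mean level; GNLY, NOL4, NOL4L and NOC2L do not, and their estimates are less certain.

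In R 4.3.3, limma 3.58.1 estimated the means of the 6 groups from all 12 arrays, with moderated variances (residual degrees of freedom 6, prior 3.71). P-values were adjusted by the Benjamini-Hochberg method over all 14118 genes, and a gene passed at an adjusted p under 0.05. Errors are standard errors of that model. The script was tested on simulated data. The number of arrays, 2 per group, limits the precision. The members and lists were chosen with earlier results of these data known. Named were MYC, NCL, FBL, BOP1 and NAT10, every gene called in a line, the largest mean changes, and those with the smallest p for differences between lines, plus up to 3 called genes per list and comparison. Over all probe sets the correlation of same-numbered deviations was 0.0405, -0.0312 and -0.0313 in HCT116, SW48 and RKO. The replicate numbers were not used as pairs, but such values over mostly unnamed probe sets cannot exclude a pairing. A batch that follows cell line cannot be told apart from it. Ribosomal protein genes were taken by symbol without paralogs marked by an added L; read to the letter, the name rule kept 20 genes, again with 0 calls after Nutlin-3a. Sequences are from RefSeq, build GRCh38.p14, with stretches inside other genes left out. Alternatives were other scalings, filters, priors, thresholds, a replicate block, each line alone and each array left out.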

Additional observations from a re-analysis of the deposited data

Results flagged for a closer look

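For 7 of the 45 genes (15.6%, beside 16.9% of all genes) every treated array moved one way in 1 line and the opposite way in another. The test of the difference itself, limma's F test of equal effects adjusted over all genes, passed for none of them. MYC was higher without overlap in HCT116 and SW48 and lower in RKO (adjusted p = 0.0754), and RRP12 had the same pattern (0.319). NCL, RRP1 and RRP15 were lower in HCT116 and RKO and higher in SW48, with adjusted p of 0.289, 0.342 and 0.469. WDR43 was higher in SW48 and lower in RKO (0.191), and UTP25 higher in HCT116 and lower in RKO (0.441).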

How the results depend on the processing

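Among the differences of named genes that were recomputed after Nutlin-3a, none changed sign under the alternatives run, and the SW48 median of the 45 genes turned from -0.0011 to 0.017 under quantile normalization. Genes lower in HCT116 numbered 1 as reported, 0 after centring arrays on their medians, with each line fitted alone, at an adjusted p under 0.01 and with any array left out (0 to 0), 5 among genes above the median level only and 6 with an intensity trend and robust prior. Genes higher in HCT116 went from 1 to 0 with each line alone. In SW48, 0 lower genes became 1 with the level filter and 1 with the trend, and 1 higher gene became 2 under quantile normalization, with the filter and among protein-coding genes only, and 3 with the trend. In RKO, 3 lower genes became 13 with the filter, 13 with the trend, 5 among protein-coding genes only, and 0 with the line alone and at 0.01; with 1 array left out they numbered 0 to 2. The 1 higher gene in RKO became 0 with the line alone and at 0.01, and 0 to 1 with an array left out. For the mean effect, 9 lower genes became 19 with the filter, 16 with the trend, 2 at 0.01 and 5 to 9 with an array left out. The 0 genes with unequal effects became 1 with the filter and 3 with the trend. Each line alone has few degrees of freedom, and with it 0% of all genes were called lower in RKO. Where a group was left with 1 array, that array was assumed to vary like the other groups.

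With the replicate number as a block (replicate block), the lower genes numbered 0 in HCT116, 0 in SW48, 2 in RKO and 8 in the mean, and 40 still differed in untreated level. UTP18 in HCT116 (adjusted p = 0.0733), NOLC1 in RKO (0.0774) and NOL11 in the mean (0.0629) no longer passed under this block. The labels do not say whether the numbers pair the samples, so it cannot be told whether this block belongs in the model. The medians of the 45 genes were the same with it, at -0.080 in HCT116, -0.0011 in SW48 and -0.14 in RKO.

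The untreated comparisons moved little: 37 to 41 genes differed between lines, 30 to 35 were lower in SW48 than in HCT116, and 28 to 36 were higher in RKO than in SW48. Without the 4 genes that share only the letters of the name, an alternative chosen after seeing the data, the calls after Nutlin-3a were the same. Without a detection call, values near the array medians cannot be told from background.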

Other observations

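The Nutlin-3a estimates of the 45 genes were set side by side between lines, which share no arrays in these contrasts but share the probe sets and the authors' scaling. Pearson's r over the 45 genes was 0.707 for HCT116 and RKO, 0.673 for HCT116 and SW48, and 0.511 for SW48 and RKO. NOPCHAP1 set much of this. Without it the values were 0.513, 0.441 and 0.197. Genes are not independent replicates, and no test was made.

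Duplicate arrays of these genes lay close together. Within a group the 2 arrays differed by a median of 0.0469 to 0.0767, lowest in treated HCT116 and highest in untreated SW48, against 0.0798 to 0.0895 over all genes. Most of these genes lie above the median level, and the spread of the brighter genes alone was not computed.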
